A study of Mus musculus with 19 samples.

Results

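The spleen holds 2 main subsets of conventional dendritic cells, cDC1 and cDC2, and the comparison described here sets cDC1 against cDC2 when both lack the transcription factor gene Xbp1. Its members are the 6 libraries whose labels give the genotype Xbp1 KO, 3 of cDC1 and 3 of cDC2, out of 19 RNA-seq libraries in the study. The remaining libraries were 3 of cDC1 and 4 of cDC2 from WT mice, and 3 of each subset labelled Xbp1-Ire1 KO, for the loss of Xbp1 and of Ern1, the gene of the enzyme IRE1. All came from spleens of strain C57BL6, and each was made from RNA of 5000 to 50000 cells taken by flow sorting. The question was which differences between the subsets shrink, persist or appear when Xbp1 is absent and IRE1, as the label has it, is still present.

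The labels add some limits. The names of 4 WT libraries (cDC1 replicates 1 and 2, cDC2 replicates 1 and 2) carry floxed alleles of both genes, XBP1fl-fl-IRE1fl-fl, and the names of the other 3 (cDC1 replicate 3, cDC2 replicates 3 and 4) carry WT. The Cre driver, the deleted exons, the age and sex of the mice and any batch are not given in the labels. Nor do they state whether the replicates of a group came from separate mice. The p-values therefore measure only the spread among these libraries, and part of that spread may be technical.

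As background, cDC1 specialise in taking up dying cells and presenting their antigens to CD8 T cells, while cDC2 present mainly to CD4 T cells. IRE1, encoded by Ern1, senses unfolded proteins in the endoplasmic reticulum (ER), and its RNase removes a short intron from Xbp1 mRNA so that the active factor XBP1s can be made. XBP1s raises genes of ER folding, secretion and lipid synthesis, and in cells without it the IRE1 RNase can also cut other mRNAs, a process called regulated IRE1-dependent decay.

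The 6 markers of the subsets followed the sort labels in the Xbp1 KO libraries. Levels are given as counts per 1e6 counts of tested genes after scaling (CPM), in the order of replicates 1 to 3, and differences are log2 fold changes of cDC1 over cDC2. Xcr1, which binds the chemokine XCL1, lay at 1227, 1221 and 1344 CPM in cDC1 and at 7.24, 10.5 and 7.69 CPM in cDC2. Clec9a, a receptor for dead cells, lay at 323, 296 and 281 CPM in cDC1 and at 9.53 to 12.1 CPM in cDC2. Cd8a lay at 532 to 622 CPM in cDC1 and at 6.89 to 9.14 CPM in cDC2. For these 3 genes every cDC1 library stood far above every cDC2 library. Sirpa, an inhibitory receptor of cDC2, lay at 31.9, 67.7 and 5.57 CPM in cDC1 and at 1520, 1554 and 1517 CPM in cDC2. Cd4 lay at 4.20 to 12.4 CPM in cDC1 and at 279 to 420 CPM in cDC2, and the lectin gene Clec4a4 at 0 to 0.545 CPM and 97.8 to 140 CPM. Sirpa, Cd4 and Clec4a4 were all highest in the second cDC1 library, and that library still lay far below cDC2.

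**Figure D1:**
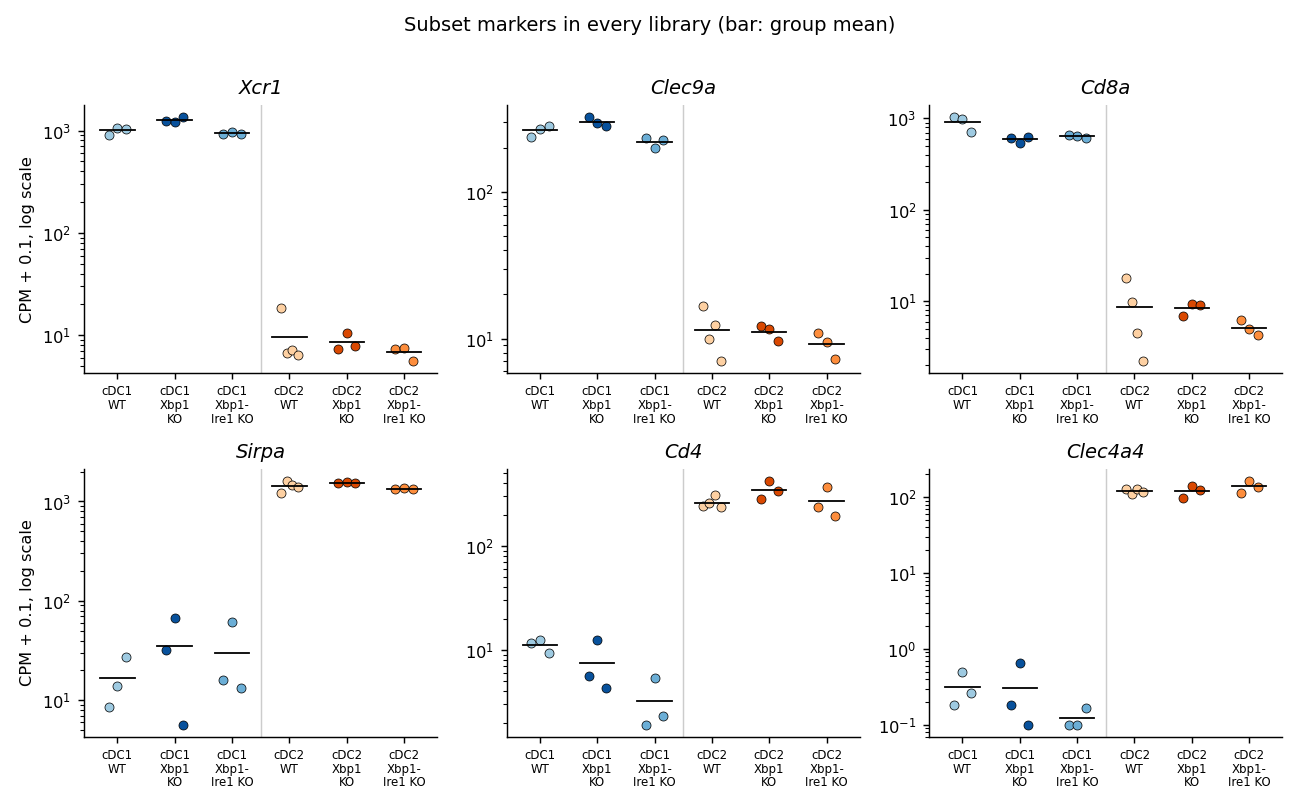
Levels of the 6 subset markers in the 19 libraries (CPM plus 0.1 on a log axis), with 1 point for each library, 6 groups along the x axis and a bar at each group mean. Xcr1, Clec9a and Cd8a lie higher in every cDC1 library than in any cDC2 library, and Sirpa, Cd4 and Clec4a4 the reverse.

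The deleted gene itself was checked next. Xbp1 (chr11:5520659-5525893, plus strand, GRCm38) lay at 99.0, 92.9 and 117 CPM in Xbp1 KO cDC1 and at 43.4, 55.7 and 40.8 CPM in Xbp1 KO cDC2. In WT it lay at 239.9, 149.6 and 147 CPM in cDC1 and at 154, 98.3, 70.3 and 74.6 CPM in cDC2. Every Xbp1 KO library lay below every WT library of its subset, but Xbp1 reads remained, and counts per gene cannot show the loss of single exons. Xbp1 counts were higher in cDC1 than in cDC2 within Xbp1 KO, by 1.14 on the log2 scale (adjusted p = 8.1e-04, edgeR's quasi-likelihood test). Ern1, the gene of IRE1, lay at 27.8 to 34.3 CPM in Xbp1 KO cDC1 and at 25.9 to 30.0 CPM in Xbp1 KO cDC2 and did not differ beyond its spread (log2 difference 0.21, adjusted p = 0.40).

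The counts of the targeted genes were not low in the cDC1 libraries labelled Xbp1-Ire1 KO. Ern1 lay at 72.6, 62.3 and 52.3 CPM in them, above all 3 cDC1 WT libraries (23, 29.9 and 24.1 CPM), and Xbp1 lay at 359, 346 and 312 CPM, also above all cDC1 WT libraries. In cDC2 labelled Xbp1-Ire1 KO, Ern1 lay at 30.2, 20.6 and 21.3 CPM, within the range of 20.1 to 30.7 CPM of cDC2 WT, and Xbp1 at 61.9, 76.0 and 55.9 CPM, overlapping cDC2 WT. The subset difference of Ern1 was 1.37 on the log2 scale in these libraries, and it was lower by 1.16 in Xbp1 KO (change -1.16, SE 0.26, adjusted p = 0.019, edgeR's quasi-likelihood test). That call was lost when any 1 of 5 libraries was left out and over 12 libraries that share a number in their names (adjusted p 0.053 to 0.065). With the deleted exons not given, counts per gene do not check this label, and Xbp1-Ire1 KO is used below as the name the labels give.

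Sequencing depth was similar between the groups, with total counts (in units of 1e6) of 11 to 12.2 for cDC1 libraries of Xbp1 KO, of 11.6 to 14.6 for cDC2 libraries of Xbp1 KO and of 10.6 to 16.2 elsewhere. One library stood apart by its content: 24 genes of the exocrine pancreas summed to 2370 CPM in cDC1 Xbp1 KO replicate 3, to 5.33 and 8.47 CPM in the other cDC1 Xbp1 KO libraries, and to no more than 10.7 CPM in each library of the other groups. Without that library 3979 genes, in place of 4766, differed between the subsets. Leaving out any 1 of the other Xbp1 KO libraries gave a similar drop, to between 3956 and 4252. The WT libraries separated by name on the second principal component (-30.8 to -40.8 for the floxed names, 0.57 to 9.82 for the WT names). The Xbp1 KO libraries lay at 22.4 to 42.3 (cDC1) and 7.76 to 22.6 (cDC2) on it, on the side of the WT names. On the fourth component cDC1 WT replicate 3 lay apart from all others.

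Other cells could also be present in a sorted sample. The marker sums given here reached higher values in Xbp1 KO cDC2 than in Xbp1 KO cDC1, but those of plasma cells and red pulp macrophages overlapped between the subsets. The B cell markers summed to 53.0 to 63.2 CPM in Xbp1 KO cDC1 and 117 to 184 CPM in Xbp1 KO cDC2, the plasma cell markers to 14.3 to 80.7 and 75.8 to 151 CPM, and the T cell markers to 3.02 to 8.02 and 17.2 to 30.1 CPM. Plasmacytoid dendritic cell markers summed to 83.9 to 144 CPM and 169.7 to 191 CPM. Monocyte markers, several of which cDC2 also express, summed to 783 to 883 and 1737 to 2179 CPM. Red pulp macrophage markers varied between replicates, at 492, 1084 and 196 CPM in cDC1 and at 2444, 1491 and 557 CPM in cDC2. The cDC1 library with 1084 CPM is the one in which Sirpa was highest. NK cell markers reached 1.37 CPM in cDC1 and 6.44 CPM in cDC2, and neutrophil markers 17.3 and 33.4 CPM. Their part in the differences below was not tested.

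Between the Xbp1 KO subsets, 4766 of 12185 tested genes differed (39.1% of tested genes, adjusted p under 0.05 in edgeR's quasi-likelihood test, p-values adjusted by Benjamini and Hochberg's method). Of these, 2236 were higher in cDC1 (18.4% of tested genes) and 2530 were higher in cDC2 (20.8%), and 2611 differed at least 2-fold (21.4%). The 3 cDC1 libraries did not overlap the 3 cDC2 libraries for 6795 genes (55.8%). Calls within the gene lists below are read against the 39.1% of all tested genes. The same test called 4971 genes in WT (40.8%, with 20% higher in cDC1 and 20.7% higher in cDC2) and 5193 in Xbp1-Ire1 KO (42.6%). In samples of sorted cells, a change in the mix of cells and a change in the RNA of each cell cannot be told apart.

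Most subset differences were carried by both genotypes. WT and Xbp1 KO share no libraries, and 3467 genes were called with the same sign in both, which is 69.7% of the WT calls and 72.7% of the Xbp1 KO calls. The difference between the 2 subset differences was then tested itself, as Xbp1 KO minus WT, and 264 genes passed (2.17% of tested genes). Of these, 224 moved towards cDC2, being lower in cDC1 relative to cDC2 than in WT (1.84%), and 40 moved towards cDC1 (0.328%), so 84.8% of the calls were towards cDC2, and 202 changed at least 2-fold (1.66%). Over all tested genes the median of this change was 0.001 on the log2 scale.

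From these tests each gene was put in a class. A difference persisted where both genotypes were called with the same sign and the change was not, which held for 3377 genes (27.7% of tested genes), 1675 higher in cDC1 and 1702 higher in cDC2. Among genes with a called change, the difference shrank with its sign kept for 33 (0.271%), 26 of them higher in cDC1, and grew for 72 (0.591%), 61 of them higher in cDC2. It reversed for 38 genes (0.312%), 34 of which went from higher in cDC1 to higher in cDC2. It appeared for 91 genes not called in WT (0.747%), 79 of them higher in cDC2. Without cDC1 WT replicate 3, 418 genes had a called change, 111 towards cDC1 and 307 towards cDC2, and without cDC1 WT replicate 1, 182 had (17 and 165). With DESeq2's test 425 had (101 and 324). With the WT-named libraries alone as WT, replicate 3 is the only cDC1 WT library, so no count is given for that setting. A further 30 genes were called in WT, lay on the opposite side without a call in Xbp1 KO, and are given no class. Calls in only 1 genotype without a called change, 1421 in WT and 1170 in Xbp1 KO, are not counted as changed.

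**Figure D2:**
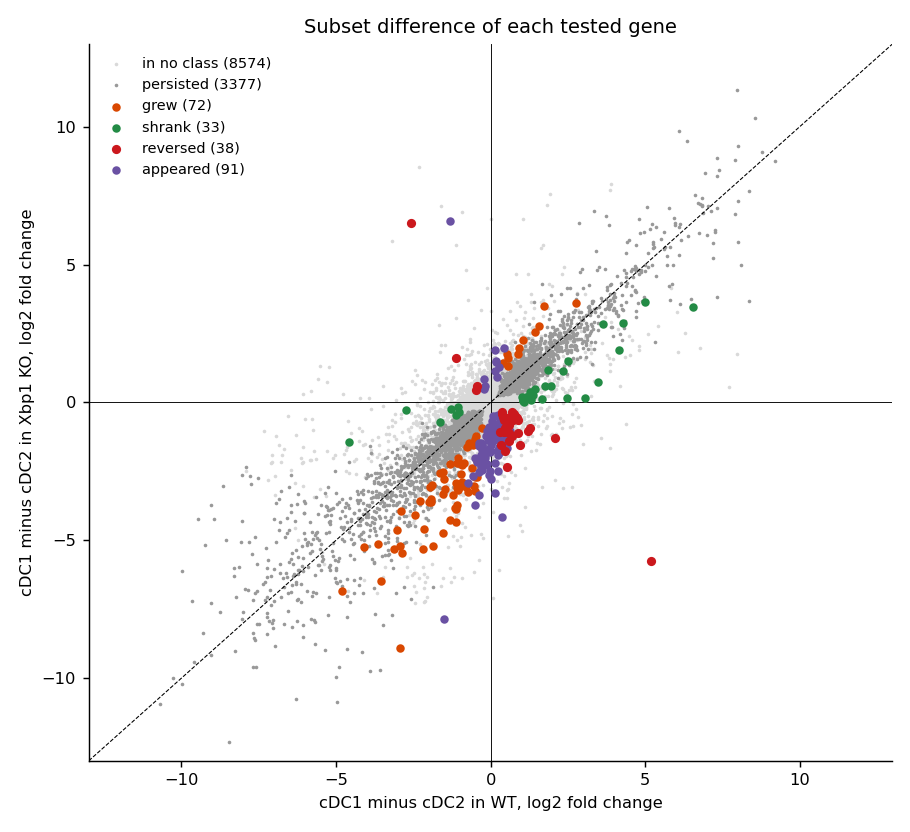
Subset difference (log2, cDC1 over cDC2) of each tested gene in WT on the x axis and in Xbp1 KO on the y axis, 1 point for each gene, coloured by class, with a dashed line of equality. Most of the 264 genes with a called change lie below the line, on the side of 224 genes that moved towards cDC2.

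Most of the differences that define the subsets persisted. Of 31 tested genes of a cDC1 identity list, 29 were higher in cDC1 Xbp1 KO and 0 were lower, with a median difference of 4.80 (4.68 in WT), against -0.03 over all tested genes. Of 36 genes of a cDC2 identity list, 30 were higher in cDC2 and 2 were higher in cDC1, with a median of -4.70 (-4.44 in WT). The 2 exceptions were the lectin gene Clec12a and Rbpj, the DNA-binding factor of Notch signalling. Of the 67 genes, 3 had a called change from WT, all of the cDC1 list: Notch4, Naaa and Fcrla. They make up 9.68% of the cDC1 list, above the 2.17% of all tested genes with a called change.

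Irf8, the transcription factor required for cDC1, lay at 4593, 4168 and 4672 CPM in Xbp1 KO cDC1 and at 203, 158 and 122 CPM in Xbp1 KO cDC2. The groups stood far apart, and the log2 difference of 4.80 was close to the 4.81 of WT. Irf4, which acts in cDC2, lay at 2.72, 10.9 and 5.06 CPM in cDC1 and at 163, 225 and 149 CPM in cDC2 (log2 difference -4.85, adjusted p = 1.84e-07, edgeR's quasi-likelihood test). Of 30 transcription factors of dendritic cells, 5 were higher in cDC1 (Irf8, Batf3, Id2, Zbtb46 and Rbpj) and 19 were higher in cDC2, among them Zeb2 (-4.70) and Tbx21 (-4.70). None of the 30 had a called change from WT, at 2.17% of all tested genes.

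Receptors, adhesion molecules and chemokines gave some of the largest differences. Of 23 genes of Toll-like receptor signalling, 5 were higher in cDC1, such as the double-stranded RNA receptor Tlr3 (log2 difference 6.16), Tlr11 (3.68) and Tlr12 (4.87), and 9 were higher in cDC2, such as the flagellin receptor Tlr5 (-8.54) and the adaptor Ticam2 (-4.76). Of 30 integrins and adhesion genes, 8 were higher in cDC1, led by Itgae (8.88), the alpha chain of CD103, and 14 were higher in cDC2, such as Itgam (-5.63), the alpha chain of CD11b. Of 22 chemokines and their receptors, 3 were higher in cDC1, with Cxcl9 at 3.95, and 11 were higher in cDC2, with Cx3cr1 at -5.98 and Ccl9 at -6.0.

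Among abundant genes of any function, the largest log2 differences on the cDC1 side were those of P3h2 (7.68), a collagen prolyl hydroxylase, Ttc39a (7.54), Xcr1 (7.22), Gcsam (7.16) and the endosomal GTPase gene Rab7b (6.69). Those on the cDC2 side were Cd209a (-8.05), a C-type lectin, S100a4 (-8.05), the protease gene Mmp12 (-8.00), Abca9 (-7.69) and Dtx1 (-7.36), a regulator of Notch signalling. P3h2 lay at 90.0 to 119.8 CPM in cDC1 and at 0.140 to 0.758 CPM in cDC2, and Cd209a at 1.91 to 3.34 CPM and 532 to 904 CPM. Groups without overlap were a condition for naming these genes, so their separation is not a result. All 10 of these genes are classed as persisting, which means only that no change from WT was called. Their uncalled changes ranged from -2.44 for Abca9 to 0.93 for Ttc39a (adjusted p = 0.35 and 0.58, edgeR's quasi-likelihood test).

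A group of mRNAs that other studies have reported as cut by IRE1 stood lower in cDC1 Xbp1 KO. Of 9 tested genes of this list, 5 were higher in cDC2 Xbp1 KO, 0 were higher in cDC1 and 4 were not called (Pmp22, Sparc, Pdgfrb and Tnfrsf10b). Their median log2 difference was -2.35 in Xbp1 KO, 0.30 in WT and 0.25 in Xbp1-Ire1 KO. The change from WT was called towards cDC2 for the same 5, Bloc1s1, Hgsnat, Tapbp, Ergic3 and Itgb2, against 1.84% of all tested genes. The list gathers reported substrates, some of them described in Xbp1-deficient dendritic cells, so it is not independent evidence of its direction.

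Bloc1s1 (chr10:128917882-128924035, minus strand), a subunit of a complex of lysosome positioning, lay at 2.04, 3.09 and 2.57 CPM in Xbp1 KO cDC1 and at 25.9, 21.3 and 28.2 CPM in Xbp1 KO cDC2. The groups did not overlap, whereas in WT they did, at 26.2 to 32.9 CPM in cDC1 and 24.5 to 31.4 CPM in cDC2. The subset difference was -3.29 in Xbp1 KO and 0.13 in WT, a change of -3.42 (SE 0.29, adjusted p = 3.24e-07, edgeR's quasi-likelihood test). It is classed as appearing.

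Tapbp (chr17:33915899-33929292, plus strand) encodes tapasin, which loads peptides onto MHC class I. It lay at 173, 179 and 122 CPM in Xbp1 KO cDC1 and at 837, 813 and 769 CPM in Xbp1 KO cDC2, and in WT at 1790.1, 1448 and 998 CPM in cDC1 and at 816 to 1236 CPM in cDC2. In Xbp1 KO every cDC1 library was lower, and in WT the groups overlapped. The difference went from 0.54 in WT to -2.35, a change of -2.89 (SE 0.26, adjusted p = 6.31e-07).

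Itgb2 (chr10:77530252-77565708, plus strand), the shared beta chain of the leukocyte integrins, lay at 34.8, 38.4 and 33.3 CPM in Xbp1 KO cDC1 and at 719, 746 and 675 CPM in Xbp1 KO cDC2. In WT the levels were 557, 402 and 327 CPM in cDC1 and 905 to 975 CPM in cDC2, already lower in cDC1 in each library. The difference grew from -1.12 to -4.33, by -3.20 (SE 0.19, adjusted p = 2.92e-09). Hgsnat (chr8:25944453-25976753, minus strand), a lysosomal acetyltransferase of heparan sulfate breakdown, lay at 4.67, 4.81 and 4.46 CPM in cDC1 and at 65.6, 65.0 and 52.7 CPM in cDC2, and its difference grew from -1.08 to -3.72. Ergic3, a cargo receptor between ER and Golgi, lay at 17 to 18.8 CPM in cDC1 and at 49.2 to 54.1 CPM in cDC2, and its difference went from 0.34 to -1.55.

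Outside that list, the genes with the smallest adjusted p of change were of the same direction. Rnf130 (chr11:50025346-50104758, plus strand), a membrane ubiquitin ligase, lay at 7.64, 9.35 and 6.17 CPM in Xbp1 KO cDC1 and at 308, 306 and 299 CPM in Xbp1 KO cDC2. All WT cDC1 libraries held more, at 70.7 to 86.3 CPM, while WT cDC2 lay at 338 to 369.5 CPM. The difference went from -2.18 in WT to -5.30, a change of -3.12 (SE 0.19, adjusted p = 2.92e-09, edgeR's quasi-likelihood test). Pbxip1 lay at 3.22 to 5.72 CPM in cDC1 and at 99.6 to 118 CPM in cDC2, with a change of -3.17, and Leprot and BC004004 changed by -2.25 and -2.09.

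**Figure D3:**
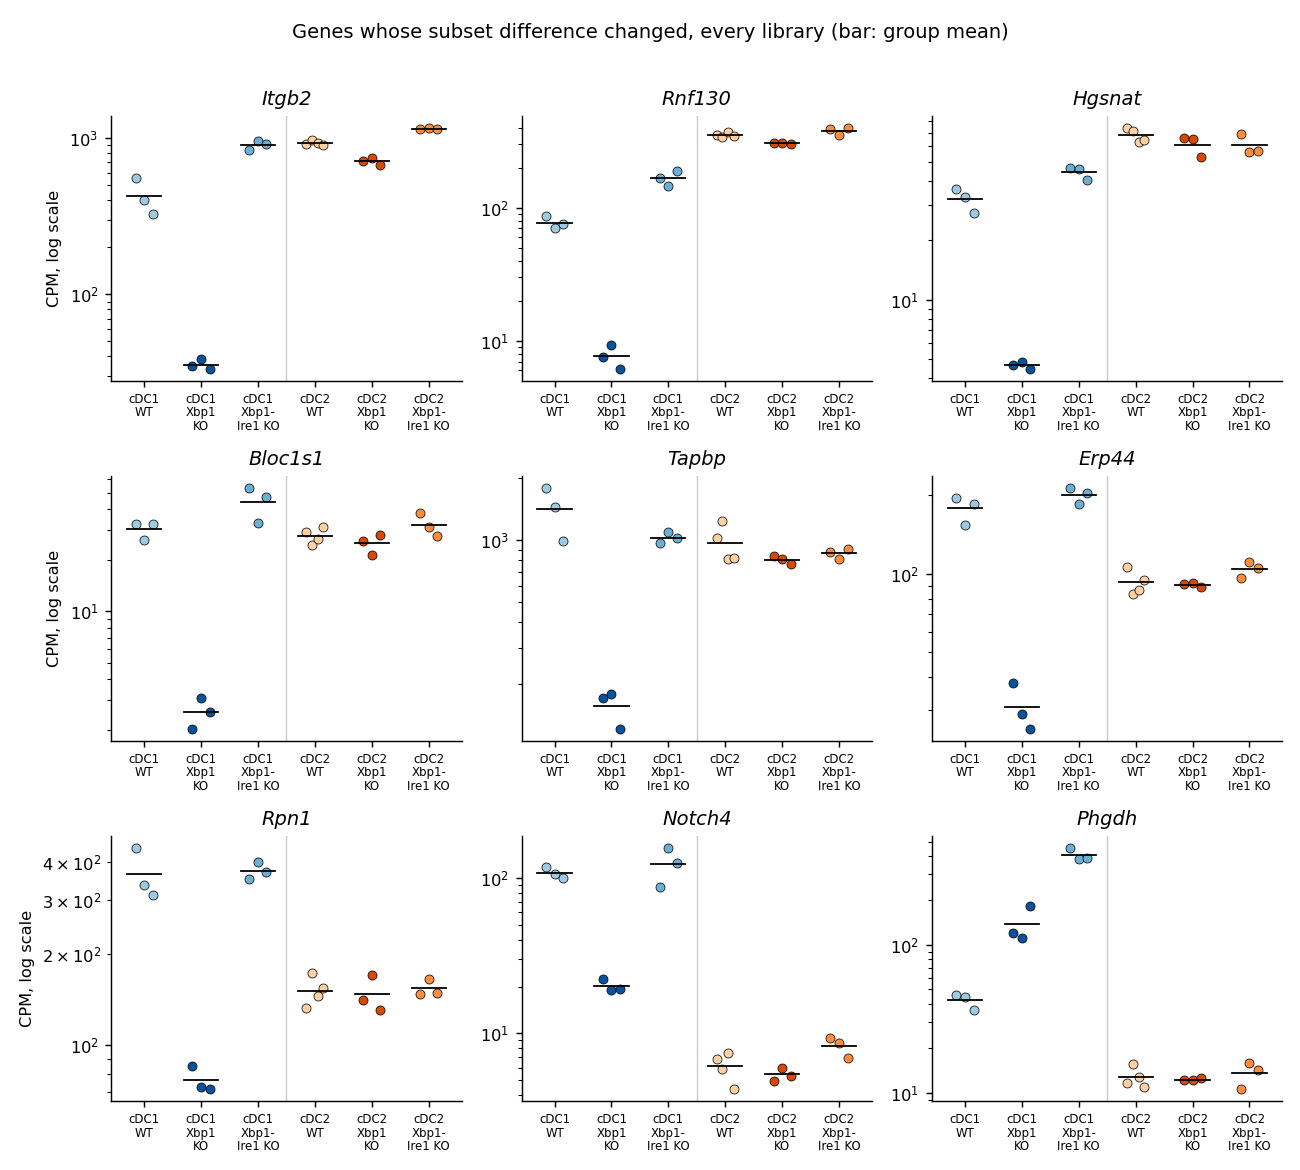
Levels of 9 genes whose subset difference changed (CPM on a log axis), 1 point for each of the 19 libraries, in 6 groups, with a bar at each group mean. In cDC1 Xbp1 KO, 8 of the 9 genes lie below both other cDC1 groups, Itgb2 for example at 33.3 to 38.4 CPM, and Phgdh lies at 111 to 182 CPM, above cDC1 WT.

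The RNase of IRE1 cuts Xbp1 mRNA in a pair of stem-loops, and such hairpins were searched for in the spliced transcripts of the tested genes. The search, set up after these results were seen, looked on the transcript strand for a loop CNGCAGN of 7 bases closed by at least 5 paired bases, with G:T pairs allowed, in the longest protein-coding transcript of each gene. The Xbp1 pair is shown as the reference, and Notch4 and Fcrla as 2 genes whose cDC1 lead was reduced or lost and whose coding sequence holds the hairpin (GRCm38, capitals mark the loop).
Xbp1, chr11:5524270-5524288, plus strand: ctgagtCCGCAGCactcag
Xbp1, chr11:5524295-5524315, plus strand: tgcacctCTGCAGCaggtgca
Notch4, chr17:34582853-34582869, plus strand: gtcacCCGCAGTgtgac
Fcrla, chr1:170921012-170921034, minus strand: agctggccCTGCAGAggtcagct

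Such a hairpin was found in 31 of 223 genes whose difference moved towards cDC2 (13.9%), in 1 of 39 that moved towards cDC1 (2.56%) and in 709 of all 11684 tested genes with a transcript (6.07%). Per kilobase of transcript the figures were 0.0411 for the genes that moved towards cDC2 and 0.0172 for all, and their median transcript lengths were 2810 and 3118 bases. None of the 9 reported substrates held one, nor did Rnf130, Pbxip1, Erp44, Leprot or BC004004. Cyp51 and Tpp1, described below, held one in their coding sequence. Apol7c, Tlr11, Pdia3, Itgam and Bmf, with no called change from WT, held one as well. A match is a description of the sequence, not a site of cutting.

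The cDC1 lead in genes of ER folding was smaller in Xbp1 KO. Of 31 ER chaperones and folding enzymes, 17 were higher in cDC1 and 5 were higher in cDC2 in Xbp1 KO, compared with 26 and 1 in WT, and the median difference was 0.48 in place of 1.03. The change was called towards cDC2 for 9 of the 31 (29.0%, 1.84% of all tested genes) and towards cDC1 for 0. Erp44 (chr4:48193323-48279558, minus strand), which retains secretory proteins in the early secretory pathway, lay at 38.0, 29.0 and 25.4 CPM in Xbp1 KO cDC1 and at 91.7, 92.2 and 88.8 CPM in Xbp1 KO cDC2. In WT the order was the opposite without overlap, at 155 to 196 CPM in cDC1 and 83.9 to 106 CPM in cDC2, and the difference went from 0.94 to -1.56 (change -2.51, SE 0.19, adjusted p = 1.22e-07, edgeR's quasi-likelihood test).

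Other folding genes moved by less. Dnajb11, a cochaperone of BiP, lay at 60.5 to 70.5 CPM in cDC1 and at 96.2 to 107 CPM in cDC2, and its difference went from 0.67 to -0.63. P4hb, a protein disulfide isomerase, lay at 307 to 349 CPM in cDC1 and at 258 to 289 CPM in cDC2, and its difference shrank from 1.36 to 0.27, at the edge of the call (adjusted p = 0.048, edgeR's quasi-likelihood test). That remaining difference was not called without cDC1 Xbp1 KO replicate 1 or 3, or without any 1 of the cDC2 Xbp1 KO libraries (adjusted p 0.052 to 0.17), while its change from WT was called in each. Cnpy3, a chaperone of Toll-like receptors, lay at 29.1 to 37.5 CPM in cDC1 and at 168 to 194 CPM in cDC2, and its difference grew from -0.61 to -2.37. Hspa5, the gene of BiP, lay at 5518, 5139 and 5642 CPM in Xbp1 KO cDC1 and at 1020.5, 1488 and 1369 CPM in Xbp1 KO cDC2. Its difference was 2.07 in Xbp1 KO and 1.32 in WT, and the change of 0.75 was not called (adjusted p = 0.36).

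Further steps of the secretory route followed with fewer calls. Of 34 genes of N-glycosylation, 7 were higher in cDC1 and 6 were higher in cDC2 in Xbp1 KO (15 and 2 in WT). The share called in Xbp1 KO, 38.2%, was near the 39.1% of all tested genes. A called change was found for 7, all towards cDC2 (20.6% of the list, 1.84% of all tested genes). Rpn1 (chr6:88084482-88105304, plus strand), a subunit of the oligosaccharyltransferase, lay at 84.9, 72.6 and 71.4 CPM in cDC1 and at 141, 170.3 and 129.8 CPM in cDC2. The order was the reverse of WT, where cDC1 lay at 313 to 445 CPM and cDC2 at 132 to 173 CPM, and the difference went from 1.27 to -0.95 (change -2.22, SE 0.20, adjusted p = 6.04e-07, edgeR's quasi-likelihood test). The mannosyltransferase gene Alg1, not called in WT where all 7 libraries lay at 22.4 to 26.2 CPM, lay at 3.26 to 4.81 CPM in Xbp1 KO cDC1 and at 22.5 to 27.6 CPM in Xbp1 KO cDC2.

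For 30 genes of the translocon and signal peptide processing, 12 were higher in cDC1 and 3 were higher in cDC2 (19 and 2 in WT), with 2 called changes. For 39 genes of transport between ER and Golgi, 5 and 3 were called (18 and 1 in WT), with 3 called changes. For 28 genes of ER-associated degradation, 8 and 4 were called, with 4 called changes. All 9 changes in these lists were towards cDC2, and those of Surf4, Ergic1 and Sec61a1 were lost under 13 to 15 of the other settings tried.

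The ER stress sensors themselves differed in part. Eif2ak3, the gene of the kinase PERK, lay at 10.2, 13.2 and 12 CPM in Xbp1 KO cDC1 and at 47.6, 63.3 and 45.9 CPM in Xbp1 KO cDC2, with no overlap, and its difference went from -0.43 in WT, not called, to -2.15 (change -1.72, adjusted p = 0.000257, edgeR's quasi-likelihood test). Atf6b, a relative of the sensor ATF6, lay at 56.2 to 69.7 CPM in cDC1 and at 145 to 197 CPM in cDC2, and its difference went from 0.11 to -1.35. These were the 2 called changes among 12 tested genes of the sensor list (16.7%, 2.17% of all tested genes).

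The subsets also parted in sterol synthesis. Of 25 tested genes of the cholesterol synthesis list, 13 were higher in cDC2 Xbp1 KO and 2 were higher in cDC1, compared with 1 and 8 in WT. The median difference was -0.56 in place of 0.21, and 9 of the 25 had a called change, all towards cDC2 (36.0%, 1.84% of all tested genes). Srebf2, the transcription factor that drives the pathway, lay at 89.5, 87.0 and 83.0 CPM in Xbp1 KO cDC1 and at 404, 436 and 391 CPM in Xbp1 KO cDC2. The groups were far apart, while in WT they overlapped at 228 to 399 CPM and 326 to 512 CPM, and the change was -1.95 (SE 0.25, adjusted p = 4.82e-05, edgeR's quasi-likelihood test).

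Cyp51, a sterol demethylase, lay at 23.2 to 29.8 CPM in Xbp1 KO cDC1 and at 81.1 to 109 CPM in Xbp1 KO cDC2, and its difference appeared (-0.18 in WT, -1.91 in Xbp1 KO). Fdps, which makes farnesyl diphosphate, kept no called difference, at 36.0 to 43.1 CPM in cDC1 and 33.4 to 39.3 CPM in cDC2, against 1.32 in WT. With the WT-named libraries alone as WT, which leaves only replicate 3 for cDC1, its change was -0.92, against -1.22 with all WT libraries. None of 18 liver X receptor targets and fatty acid synthesis genes had a called change.

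Lysosomal genes were mostly higher in cDC2. Of 42 tested genes, 23 were higher in cDC2 Xbp1 KO and 7 were higher in cDC1, with a median of -0.71 (-0.28 in WT). A called change was found for 9, all towards cDC2 (21.4%, 1.84% of all tested genes). Lamp1, an abundant lysosomal membrane protein, lay at 61.3, 61.0 and 33.9 CPM in cDC1 and at 475, 425 and 383 CPM in cDC2, and its difference grew from -0.53 to -3.04. The peptidase gene Tpp1 lay at 7.55 to 13.8 CPM in cDC1 and at 83.2 to 96.9 CPM in cDC2, and its difference grew from -1.09 to -3.12. Gm2a, the activator of ganglioside breakdown, reversed: it lay at 1433 to 1637 CPM in Xbp1 KO cDC1 and at 3401 to 3555 CPM in Xbp1 KO cDC2, but at 5635 to 8099 CPM in cDC1 WT and 3536 to 4785 CPM in cDC2 WT.

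Among genes of antigen presentation, 3 had a called change. Of 21 genes of the MHC class I route, 12 were higher in cDC1 and 5 were higher in cDC2, compared with 14 and 0 in WT, with a median of 0.69 (0.86 in WT). The change was called for Tapbp and H2-T23 (9.52% of the 21, 2.17% of all tested genes), and both reversed. H2-T23, a class Ib gene, lay at 169 to 194 CPM in cDC1 and at 361 to 402 CPM in cDC2, and its difference went from 0.31 to -1.08. The peptide transporter gene Tap1 persisted at 1006, 910.0 and 878 CPM in cDC1 and 303, 249 and 269 CPM in cDC2 (log2 difference 1.77). Of 17 genes of the class II route, 1 was higher in cDC1 and 6 were higher in cDC2 (41.2% called, 39.1% of all tested genes), compared with 5 and 7 in WT. The 1 called change (5.88%) was that of H2-DMb1, a peptide editor. It lay at 317 to 348 CPM in cDC1 and 345 to 373 CPM in cDC2 with no called difference, against 0.94 in WT.

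A few genes with a clear cDC1 lead in WT show how far it was reduced. Notch4 (chr17:34564268-34588503, plus strand), a receptor of the Notch family, lay at 22.4, 19 and 19.3 CPM in Xbp1 KO cDC1 and at 4.96, 6.00 and 5.35 CPM in Xbp1 KO cDC2. The groups still did not overlap, but WT cDC1 lay at 100.1 to 118 CPM, and the difference shrank from 4.14 to 1.89 (change -2.25, SE 0.28, adjusted p = 3.87e-05, edgeR's quasi-likelihood test). Naaa, a lysosomal amidase used as a cDC1 marker, lay at 857, 813 and 717 CPM in cDC1 and at 59.3 to 66.7 CPM in cDC2, and its difference shrank from 4.98 to 3.63. Cd81 (chr7:143052739-143067934, plus strand), a tetraspanin, lay at 125, 161 and 118 CPM in cDC1 and at 187, 262 and 155 CPM in cDC2, so that the groups overlapped. Its difference was 2.24 in WT and -0.58, not called, in Xbp1 KO. Fcrla (chr1:170917576-170927583, minus strand), an intracellular Fc receptor-like protein, lay at 0.849, 2.36 and 2.66 CPM in cDC1 and at 3.24, 5.02 and 1.76 CPM in cDC2, with overlap, against 25.5 to 70.4 CPM in cDC1 WT and 0.825 to 4.56 CPM in cDC2 WT. Its change of -5.16 (SE 0.69, adjusted p = 8.86e-05) rests on these low levels.

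The change in subset difference was traced to each subset by comparing Xbp1 KO with WT within it. These contrasts use the libraries of the change itself and are no independent support. In cDC1, 1340 genes differed between Xbp1 KO and WT (11% of tested genes), 517 higher (4.24%) and 823 lower (6.75%) in Xbp1 KO. In cDC2, 12 did (0.0985%), 9 higher (0.0739%) and 3 lower (0.0246%). For the 224 genes that moved towards cDC2, the median Xbp1 KO over WT was -1.39 in cDC1 and -0.02 in cDC2. Of these 224, 220 were called in cDC1 and 3 in cDC2, and the cDC1 contrast was the larger in size for 217. Their median subset difference was 0.11 in WT and -1.33 in Xbp1 KO. For the 40 genes that moved towards cDC1, the medians were 0.95 in cDC1 and -0.13 in cDC2, and the cDC1 contrast was the larger for 36.

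**Figure D4:**
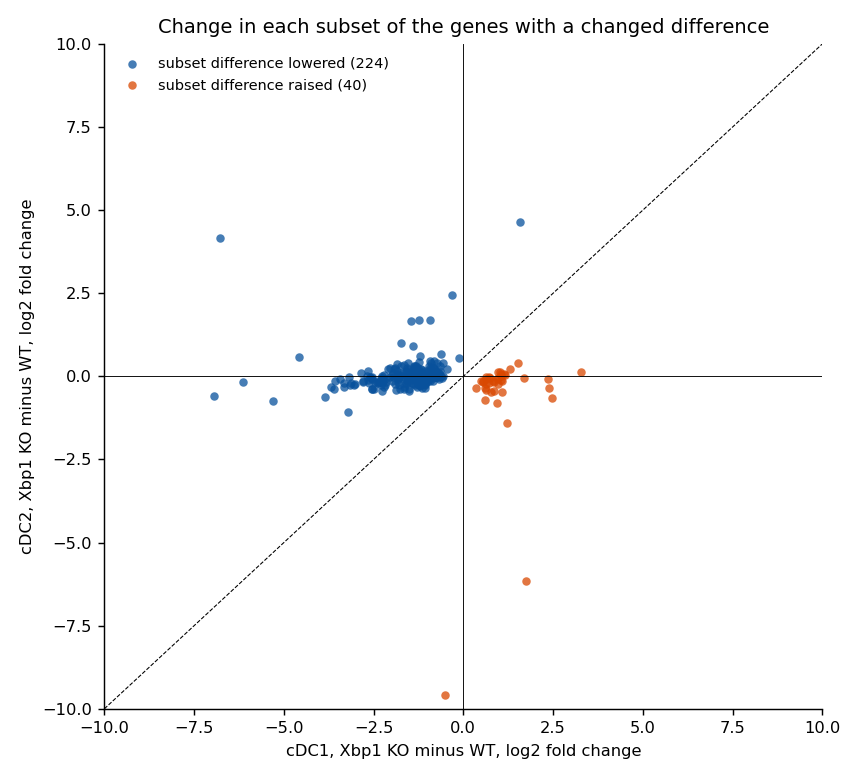
Xbp1 KO over WT (log2) in cDC1 on the x axis and in cDC2 on the y axis for the 264 genes whose subset difference changed, 1 point for each gene, in blue for 224 that moved towards cDC2 and in orange for 40 that moved towards cDC1. The blue points lie mainly left of 0, with a median of -1.39 in cDC1 and -0.02 in cDC2.

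Few genes differed in cDC2, and they included Mtmr9, chosen after its values were seen. It lay at 98.9, 199 and 90.3 CPM in Xbp1 KO cDC2 and at 22.3 to 25.8 CPM in cDC2 WT, while cDC1 Xbp1 KO lay at 21.9 to 24.4 CPM. Its subset difference of -2.51 in Xbp1 KO came with 0.23 in WT, and it is classed as appearing. With the WT-named libraries alone as WT, which leaves only replicate 3 for cDC1, the change was -2.86.

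The genes that moved towards cDC1 included targets of the integrated stress response, the program in which phosphorylated eIF2alpha lets the factor ATF4 raise amino acid synthesis, transport and charging. Of 42 tested targets, 29 were higher in cDC1 Xbp1 KO and 5 were higher in cDC2, compared with 21 and 8 in WT. The median difference was 1.36 in Xbp1 KO, 0.55 in WT and 2.01 in Xbp1-Ire1 KO, and 8 had a called change from WT towards cDC1 (0.328% of all tested genes) and 1 towards cDC2. Within cDC1, 26 of the 42 were higher in Xbp1 KO than in WT and 1 was lower, and within cDC2 none was called.

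Phgdh (chr3:98313170-98339990, minus strand), the first enzyme of serine synthesis, lay at 120.0, 111 and 182 CPM in Xbp1 KO cDC1 and at 12.1, 12.1 and 12.5 CPM in Xbp1 KO cDC2. All 3 cDC1 libraries were above the WT cDC1 range of 36.2 to 46.0 CPM, and cDC2 stayed within the WT range of 11 to 15.6 CPM. The difference grew from 1.72 to 3.49 (change 1.77, SE 0.26, adjusted p = 0.000203, edgeR's quasi-likelihood test). Mthfd2, a mitochondrial folate enzyme, lay at 235, 202 and 249.7 CPM in cDC1 and at 98.4 to 110.1 CPM in cDC2, and its difference appeared (0.16 in WT, 1.15 in Xbp1 KO).

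Several aminoacyl-tRNA synthetases moved in this direction. Sars lay at 209.7, 212 and 255 CPM in cDC1 and at 76.5 to 89.1 CPM in cDC2, Lars at 207 to 239 CPM and 58.3 to 71.1 CPM, and their differences grew from 0.39 to 1.45 and from 0.54 to 1.75. Those of Yars and Cars grew from 0.93 to 1.98 and from 1.42 to 2.54. The exception was Slc1a5, a glutamine transporter: at 23.3, 20.3 and 34.0 CPM in cDC1 and 77.2 to 81.7 CPM in cDC2 it moved towards cDC2, from 0.28 to -1.62. Atf4 itself lay at 99.9 to 139 CPM in cDC1 and at 34.1 to 49.3 CPM in cDC2 (log2 difference 1.56), and its change from WT was not called.

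Promoters of these groups were read from RefSeq (GRCm38.p6, 250 bases before to 50 after the start). A promoter was searched for 9334 of the 12185 tested genes. The shares below are of genes with a searched promoter, and members of each group without one are left out. The element TGATGNAA, bound by C/EBP and ATF factors, was present on either strand in 13 of 33 promoters of the integrated stress response list (39.4%) and in 269 of all (2.88%). It was found in 2 of 31 genes that moved towards cDC1 (6.45%) and in 8 of 172 that moved towards cDC2 (4.65%). The ER stress response element, CCAAT and CCACG with 9 bases between them, was present in 7 of 23 promoters of the ER folding list (30.4%), in 1 of 172 genes that moved towards cDC2 (0.581%) and in 16 of all (0.171%). Both lists were drawn up from known targets of these factors. Matches in 2 genes of each list are shown with 5 flanking bases (capitals mark the element).
Tars, chr15:11399661-11399678, plus strand: ccagcTGATGCAAcggga
Asns, chr6:7693220-7693237, minus strand: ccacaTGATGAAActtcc
Hspa5, chr2:34772020-34772048, plus strand: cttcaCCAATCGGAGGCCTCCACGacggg
Creld2, chr15:88819515-88819543, minus strand: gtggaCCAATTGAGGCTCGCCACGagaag

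The element TGACGTGG, which XBP1s can bind, was present in 2 of 23 promoters of the ER folding list (8.70%), in 4 of 172 genes that moved towards cDC2 (2.33%) and in 98 of all (1.05%). The sterol element TCACNCCAC was present in 1 of 18 promoters of the cholesterol list (5.56%), in 5 of the 172 (2.91%) and in 124 of all (1.33%). Both strands were searched, and these matches are descriptions of the sequence and not of binding.

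Genes of steady-state maturation, the program that dendritic cells enter without infection as they turn from uptake to presentation of antigen, leaned to cDC2 in Xbp1 KO. Of 51 tested genes, 29 were higher in cDC2 and 8 were higher in cDC1, whereas WT had 19 on each side, and the median difference was -1.04 in Xbp1 KO, -0.12 in WT and -1.64 in Xbp1-Ire1 KO. The change from WT was called towards cDC2 for 9 genes (17.6%, 1.84% of all tested genes) and towards cDC1 for none. Ccl22, a chemokine of mature dendritic cells, lay at 14.9, 4.81 and 5.74 CPM in Xbp1 KO cDC1 and at 27.6, 17.4 and 17 CPM in Xbp1 KO cDC2, and the groups did not overlap. In WT cDC1 held more, at 74.6 to 128 CPM against 17.7 to 35.2 CPM, and the difference went from 2.09 to -1.28 (change -3.38, SE 0.49, adjusted p = 0.000216, edgeR's quasi-likelihood test). The change was called under every setting tried, but the remaining difference in Xbp1 KO was not called without cDC1 Xbp1 KO replicate 2 (-1.01), cDC1 Xbp1 KO replicate 3 (-1.07) or cDC2 Xbp1 KO replicate 1 (-1.02).

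Not all members of that list are specific to maturation. The ion channel gene Tmem176a lay at 12.8, 11.6 and 14.9 CPM in cDC1 and at 452 to 522 CPM in cDC2, and its difference grew from -2.92 to -5.19, with Tmem176b going from -3.65 to -5.12. Anxa3, which binds phospholipids, lay at 8.53 to 10.7 CPM in cDC1 and at 58.0 to 82.3 CPM in cDC2, and its difference grew from -0.91 to -2.87. Relb, a subunit of NF-kappaB, lay at 87.0 to 101 CPM in cDC1 and at 473 to 498 CPM in cDC2, and its change from -1.71 to -2.36 was not called.

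A pair of genes that moved towards cDC1 stood outside the lists. Fam84b lay at 36.8, 23.3 and 22 CPM in Xbp1 KO cDC1 and at 10.5, 9.49 and 6.85 CPM in Xbp1 KO cDC2, the reverse of its order in WT, and went from -1.10 to 1.61. Inpp4b, a phosphoinositide phosphatase, lay at 9.16, 16.2 and 11 CPM in cDC1 and at 13 to 16.1 CPM in cDC2. Those groups overlapped, while WT cDC1 lay at 1.11 to 3.05 CPM below WT cDC2 at 12.2 to 20.9 CPM, and the difference shrank from -2.74 to -0.29. The change was 2.72 for Fam84b and 2.45 for Inpp4b. With the WT-named libraries alone as WT, which leaves only replicate 3 for cDC1, it was 2.21 and 2.26.

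The subset difference of Xbp1 KO was also set against that of the libraries labelled Xbp1-Ire1 KO, in which, as described above, counts of Ern1 and Xbp1 were not low in cDC1. This comparison shares the 6 Xbp1 KO libraries with the one against WT, so the 2 results are not independent and are given side by side. In it 261 genes were called (2.14% of tested genes), 222 lower in cDC1 relative to cDC2 in Xbp1 KO (1.82%) and 39 higher (0.32%). This split depended on the setting: it was 329 and 135 with DESeq2's test, 283 and 109 in a fit of the compared groups alone, 274 and 114 with the replicate block, and 204 and 165 with a block by the number in the library names. For the 222, the median subset difference was -1.18 in Xbp1 KO, 0.45 in Xbp1-Ire1 KO and 0.05 in WT. Within cDC1, 1504 genes differed between the 2 knockouts (12.3%), and within cDC2, 2 did (0.0164%).

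The reported IRE1 substrates again had 5 of 9 called, all lower in cDC1 relative to cDC2 in the libraries labelled Xbp1 KO than in those labelled Xbp1-Ire1 KO. Over all tested genes the share in this direction was 1.82%. Itgb2 lay at 843, 963 and 918 CPM in Xbp1-Ire1 KO cDC1 and at 1144 to 1161 CPM in Xbp1-Ire1 KO cDC2, a difference of -0.34 against -4.33 in Xbp1 KO (change -3.98, SE 0.20, adjusted p = 1.34e-10, edgeR's quasi-likelihood test). Rnf130, at 144 to 188 CPM in Xbp1-Ire1 KO cDC1, gave -1.19 against -5.30, and Hgsnat, at 40.6 to 46.5 CPM, gave -0.45 against -3.72. Of the ER folding list, 14 of 31 were called in the same direction (45.2%), with Dnajb11 at 1.37 in Xbp1-Ire1 KO and -0.63 in Xbp1 KO.

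Some genes distinguished the knockouts in another way. Ptger3 (chr3:157566892-157645888, plus strand), a prostaglandin E2 receptor, lay at 0.170, 0.182 and 0.257 CPM in Xbp1 KO cDC1 and at 63.6, 92.2 and 93.9 CPM in Xbp1 KO cDC2, with WT cDC1 at 0.171 to 0.567 CPM. In cDC1 Xbp1-Ire1 KO it lay at 24, 15.2 and 14 CPM, so the change between the knockouts was -6.64 (SE 0.44, adjusted p = 6.18e-09, edgeR's quasi-likelihood test). None of the cDC1 WT or cDC1 Xbp1 KO libraries reached 1 CPM. H2-Eb2, a class II beta chain gene, lay at 14.5 to 16.5 CPM in Xbp1 KO cDC1 and at 108 to 125 CPM in Xbp1 KO cDC2, and its difference was -2.89 in Xbp1 KO and -4.99 in Xbp1-Ire1 KO. Apol7c lay at 533, 484 and 858 CPM in cDC1 and at 188 to 232 CPM in cDC2, a difference of 1.62, and was at -0.01 in Xbp1-Ire1 KO.

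For the integrated stress response list, Xbp1 KO lay between the other genotypes in its median. Its 42 genes had 11 called as lower in cDC1 relative to cDC2 in Xbp1 KO than in Xbp1-Ire1 KO (26.2%, 1.82% of all tested genes), and 0 as higher. Phgdh lay at 379.5 to 449 CPM in Xbp1-Ire1 KO cDC1 and at 10.6 to 15.8 CPM in Xbp1-Ire1 KO cDC2, with subset differences of 1.72 in WT, 3.49 in Xbp1 KO and 4.90 in Xbp1-Ire1 KO. Slc1a5 followed another order, 0.28, -1.62 and 1.62. Ddit3, the gene of the stress factor CHOP, lay at 11.4 to 22 CPM in Xbp1 KO cDC1, 5.86 to 8.61 CPM in Xbp1 KO cDC2 and 49.4 to 72.6 CPM in Xbp1-Ire1 KO cDC1. Its change between the knockouts was called (-2.34, adjusted p = 0.00602, edgeR's quasi-likelihood test) and that from WT was not (1.5, adjusted p = 0.12).

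**Figure D5:**
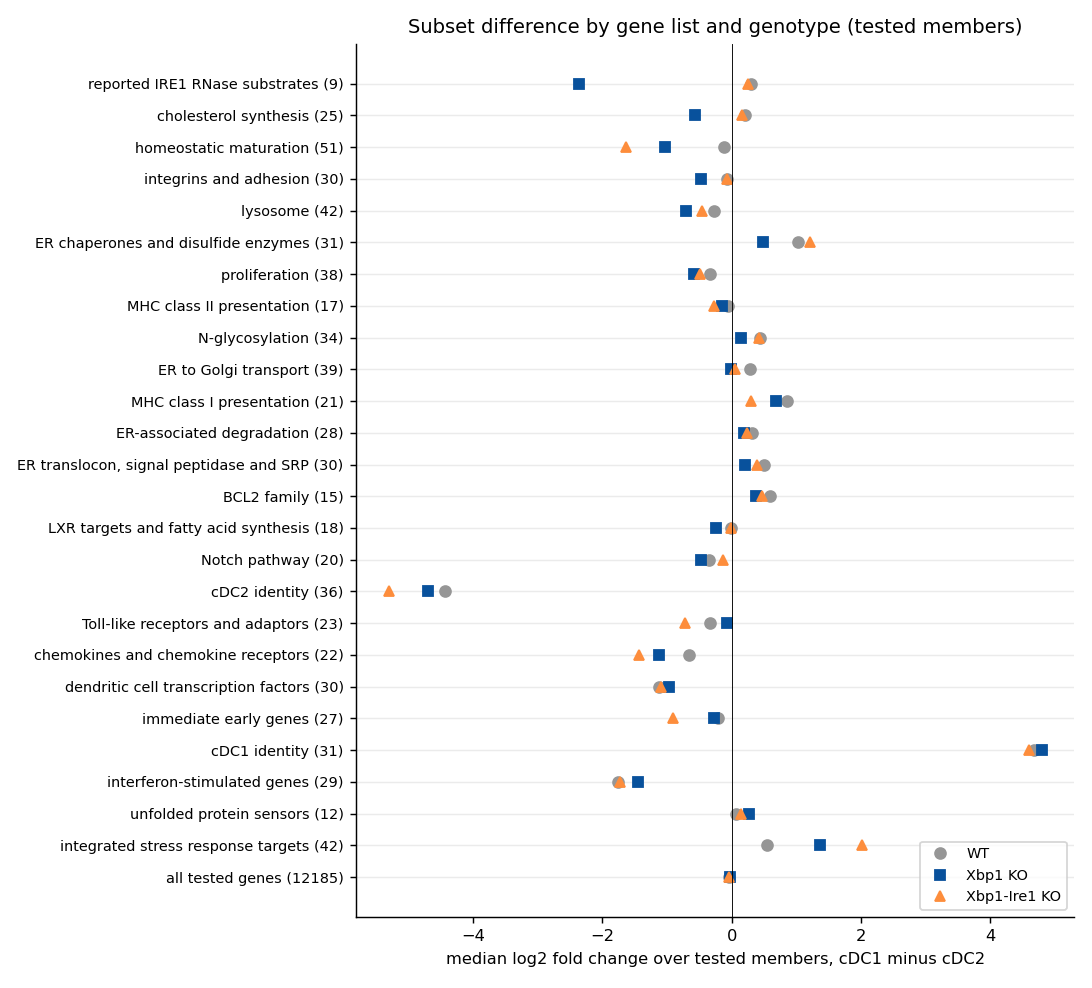
Median subset difference (log2, cDC1 over cDC2, x axis) of the tested members of 25 gene lists and of all tested genes, with 1 point each for WT, Xbp1 KO and Xbp1-Ire1 KO. The reported IRE1 substrates lie at -2.35 in Xbp1 KO and at 0.30 and 0.25 in the other genotypes, while each identity list keeps its side in all 3.

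Other lists had at most 1 called change from WT, and their calls between the Xbp1 KO subsets are read against 39.1% of all tested genes. Of 29 interferon-stimulated genes, 18 were higher in cDC2 Xbp1 KO and 5 were higher in cDC1 (79.3% called). Of 38 genes of proliferation, 11 were higher in cDC2 and none in cDC1, and 27 were not called, Mki67 among them (28.9% called). Of 27 immediate early genes, which respond to handling of cells, 7 were higher in cDC2 and 1 in cDC1 (29.6% called), so neither of these 2 lists exceeded the share over all genes. Of 15 genes of the BCL2 family, 5 were higher in cDC1 and 3 in cDC2 (53.3% called), and of 20 Notch pathway genes 5 and 7 were (60% called), where Notch4 had the only called change.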

How the data were processed

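The authors deposited 1 table of raw read counts per gene symbol for each subset, and per the file headers its columns are the libraries. The tools in the submitters' processing notes are TopHat2 2.1.0, with Trimmomatic 0.35, FastQC 0.11.4, SAMtools 0.1.19 and limma 3.42.2, on mm10. How reads were counted, and on which annotation, is not given in the sources used here. Counts were joined by symbol (24421 symbols). Tests used edgeR 4.0.16 (R 4.3.3). Its filterByExpr kept 12185 genes (minimum count 10, minimum total 15), TMM scaled the 19 libraries, and 1 fit of 6 groups gave all contrasts by the quasi-likelihood F test, adjusted over all tested genes (Benjamini-Hochberg) and called at 0.05. SE values are approximate, taken from the log2 fold change and the root of F. Levels in CPM use the counts of tested genes, and sums for other cells use all counts unscaled. Coordinates and transcripts are from GENCODE M21 (GRCm38). No test was run on lists.

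The groups follow the labels, and the members and lists were chosen with earlier results of these data known. Named genes are the 6 markers, Xbp1, Ern1 and up to 4 members of each list per test. Added to them are the 8 largest differences on each side and the 8 smallest adjusted p per direction of each change. Both were taken among called genes with mean log2 CPM of at least 3, and the largest differences only among genes whose groups did not overlap. Not every gene that this rule names is described in the text. Irf4, Zeb2, Atf4, Ddit3, Mtmr9, Batf3, Zbtb46, Clec12a, Mki67, the uncalled reported substrates and the genes shown only by sequence were chosen after their values were seen. Alternatives were DESeq2 1.42.0 as test or size factors, limma-voom (limma 3.58.1), other count filters, fits of the compared groups alone, blocks by replicate number, only fl-fl or only WT-named libraries as WT, and leaving out single libraries. The pipeline was tested on simulated counts. Python 3.11.15 and matplotlib 3.10.9 drew the figures.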

Additional observations from a re-analysis of the deposited data

Results flagged for a closer look

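The subset difference changed between WT and Xbp1 KO for 264 genes and between Xbp1 KO and Xbp1-Ire1 KO for 261, each by a test of the difference itself (edgeR's quasi-likelihood test, adjusted p under 0.05). The changes from WT with the smallest adjusted p were towards cDC2 for Rnf130 (-3.12 on the log2 scale), Itgb2 (-3.20), Hgsnat (-2.64), Erp44 (-2.51), Pbxip1 (-3.17), Leprot (-2.25), Bloc1s1 (-3.42) and BC004004 (-2.09). They were towards cDC1 for Phgdh (1.77), Sars (1.06), Lars (1.20), Fam84b (2.72), Mthfd2 (1.00), Yars (1.06), Inpp4b (2.45) and Cars (1.11).

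Against Xbp1-Ire1 KO, with the Xbp1 KO libraries shared, the lowered genes were Rnf130 (-4.11), Itgb2 (-3.98), Hgsnat (-3.27), Pbxip1 (-3.96), BC004004 (-2.40), Ptger3 (-6.64), Dnajb11 (-2.0) and Slc1a5 (-3.24). The raised genes were H2-Eb2 (2.1), Zfp36 (0.86), Gpr82 (1.93), Zfp367 (1.04), Apol7c (1.63), Sfmbt1 (0.85), Lacc1 (1.52) and Cdk14 (0.75).

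Among 201 named genes, 15 had 1 cDC2 WT library far from the other 3. Chance gives about 1 in 20 for normally spread values. That rate does not hold for Ngp, Cela2a and Pnlip, whose other 3 libraries held no reads. The distant values were 18.3 CPM for Xcr1, 67.6 for Sars, 34.3 for Lacc1, 294 for Ppt1, 216 for Cnpy3, 8.06 for Pdia5, 30.3 for Fdps, 33.2 for Oas1a and 790 for Csf1r. For genes of other cells they were 0.706 CPM for Camp, 2.19 for Ltf, 4.45 for Ngp, 0.163 for Cela2a and 0.0814 for Pnlip, and for the Y-linked gene Eif2s3y 65.9.

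Transcripts of the exocrine pancreas, outside the subset comparison, summed to 2370 CPM in replicate 3 of cDC1 Xbp1 KO, while no other library had over 10.7 CPM, and 6 of 8 tested genes of that list were called higher in cDC1 Xbp1 KO.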

How the results depend on the processing

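The subset difference in Xbp1 KO gave 3636 to 5365 calls over all settings tried, and 149 of 162 named genes kept direction and call throughout. For the changes from WT and from Xbp1-Ire1 KO, 38 of 56 and 40 of 50 named genes did, and none of these changed direction. DESeq2's test called 425 changes from WT (101 towards cDC1) and 464 from Xbp1-Ire1 KO (135 towards cDC1), with 74 genes that shrank, 110 that grew and 152 that appeared. With the WT-named libraries alone, 173 changed from WT (22 towards cDC1) and 13 reversed, and with the floxed names alone 82 of 325 were towards cDC1. A fit of the compared groups alone called 392 changes from Xbp1-Ire1 KO. The causes were not tested, and no scaling moved the median of all genes by over 0.1.

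With 1 library left out at a time, 3956 to 4252 genes differed, 182 to 418 changed from WT (17 to 111 of them towards cDC1) and 194 to 261 from Xbp1-Ire1 KO (14 to 48). In the classes, 2948 to 3353 genes persisted, 22 to 68 shrank, 55 to 82 grew, 18 to 58 reversed and 67 to 139 appeared. Without cDC1 WT replicate 3 alone, 418 changed from WT, 68 shrank, 58 reversed and 139 appeared. Without cDC1 WT replicate 1, 22 shrank and 18 reversed, and 24 or 25 reversed without cDC1 Xbp1 KO replicate 2 or any 1 cDC2 Xbp1 KO library.

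The labels do not state that replicate numbers pair the samples, and deviations of same-numbered libraries correlated at 0.341, 0.521 and 0.485 in WT, at 0.021, 0.079 and 0.339 in Xbp1 KO and between -0.095 and 0.124 in Xbp1-Ire1 KO. In WT, libraries with other numbers but the same kind of name (floxed or WT) correlated at 0.119, 0.405 and 0.531. Those with different kinds of name correlated at -0.631 to -0.313. With the replicate block by title number, 5000 genes differed, 305 changed from WT and 388 from Xbp1-Ire1 KO (114 towards cDC1). With a block by the number in the library names, which 12 libraries share, the counts were 3636, 200 and 369 (165 of the last towards cDC1), and without that block on the same libraries, a setting added after the data were seen, 3762, 206 and 309, with 46 that grew.

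The reversed directions in Xbp1 KO were all of pancreatic genes, which rest on cDC1 Xbp1 KO replicate 3. Without it Cela2a was at -2.56, Pnlip at -5.27 and Prss2 at -1.90, and leaving out other libraries kept them at up to 10.7, 8.79 and 10.1. Over the libraries of the name block Cela1 was at -0.198, Pnlip at -5.85 and Prss2 at -2.41, and with that block Pnlip was at -5.79 and Prss2 at -1.41. Sars, Mthfd2, Yars and Tmem176b lost the call of change from WT in those 12 libraries.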
